A study of Saccharomyces cerevisiae with 21 samples.

Results

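The yeast peptide transporter genes OPT1, OPT2 and PTR2 and CUP9, the gene of a repressor of PTR2, were followed across 7 groups of chemostat cultures of Saccharomyces cerevisiae. The members were picked by name, with an earlier account of these arrays in view, and are 4 of 5461 genes tested. Each had 1 probe set on the YG-S98 array: OPT1 (YJL212C, chromosome X), OPT2 (YPR194C, chromosome XVI), PTR2 (YKR093W, chromosome XI) and CUP9 (YPL177C, chromosome XVI). OPT2 was known from that account as a transcript high under nitrogen limitation, so the comparisons that use its N-limited wild-type values are given as a description, with no test.

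The study grew the wild type CEN.PK113-7D (MATa MAL2-8c SUC2) in anaerobic chemostats in which 1 nutrient set the growth rate: glucose, the carbon source (C), or the supply of nitrogen (N), of sulfur (S), of phosphorus (P) or of zinc (Zn). A strain of that background lacking MSN2 and MSN4, genes of the general stress transcription factors, was grown under C or N limitation; its labels give ura3, msn2::loxP and msn4::loxP-kanMX-loxP, with URA3 carried on plasmid p426, so the mutant also differed from the wild type in its URA3 dosage. Every group had 3 arrays, each with RNA of 1 culture, diluted at 0.10 per h and held at pH 5.0. Residual glucose was aimed at 17 g/L in all groups but the C-limited ones, so a comparison with C limitation also sets excess against scarce glucose. The medium was synthetic, with ammonium sulfate listed for N limitation, and no peptide supply is stated in the labels for any group. The labels call the replicates separate cultures in every group except C-limited wild type, where p-values may measure technical spread. For N-limited wild type the growth protocol also mentions sparging with air and limiting glucose. The titles were followed instead (anaerobic, nitrogen-limited), a choice that bears on every value of that group.

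Yeast imports small peptides through Ptr2, a proton-coupled carrier of di- and tripeptides. External amino acids sensed by the Ssy1-Ptr3-Ssy5 (SPS) complex release the transcription factors Stp1 and Stp2, which induce PTR2 together with Dal81, while the homeodomain protein Cup9 represses it. Cup9 protein is marked for degradation by the ubiquitin ligase Ubr1, and imported dipeptides that bind Ubr1 speed this up, so a CUP9 transcript level need not follow the repressor's amount. Opt1, also called Hgt1, is the high-affinity glutathione transporter and carries longer oligopeptides, and Opt2 belongs to the same oligopeptide transporter family.

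Signals below were scaled to a common trimmed mean of 150.2, and readings under 12 were raised to that floor, so a gene at 12 has only an upper limit. A signal is a probe set's own brightness relative to all RNA on its array, and levels of different genes are not set against each other. Before scaling, the deposited trimmed mean ran from 235 to 251 in C, 247 to 311 in N and 398 to 466 in Zn limitation of the wild type, and from 150.1 to 150.2 elsewhere. S limitation, P limitation and the mutant came in 1 deposit, and the remaining wild-type groups in 1 deposit each. Only P against S limitation and N against C limitation of the mutant lie within a deposit; in all other comparisons deposit and group cannot be told apart. MSN2 read 12 to 13.7 on the 6 mutant arrays against 58.0 to 147 on the wild-type arrays, whereas MSN4 read 34.5 to 55.6 against 47.3 to 153 and so did not by itself mark the mutant. Replicate 1 of the C-limited msn2 msn4 group did not read like its partners: DAL5, an allantoate permease gene that also serves dipeptide uptake, read 1337 there against 83.5 and 109 on the other arrays of its group, and RGI2 read 12 against 302 and 225. That array was kept as labelled, and results that rest on it are given with and without it.

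**Figure D1:**
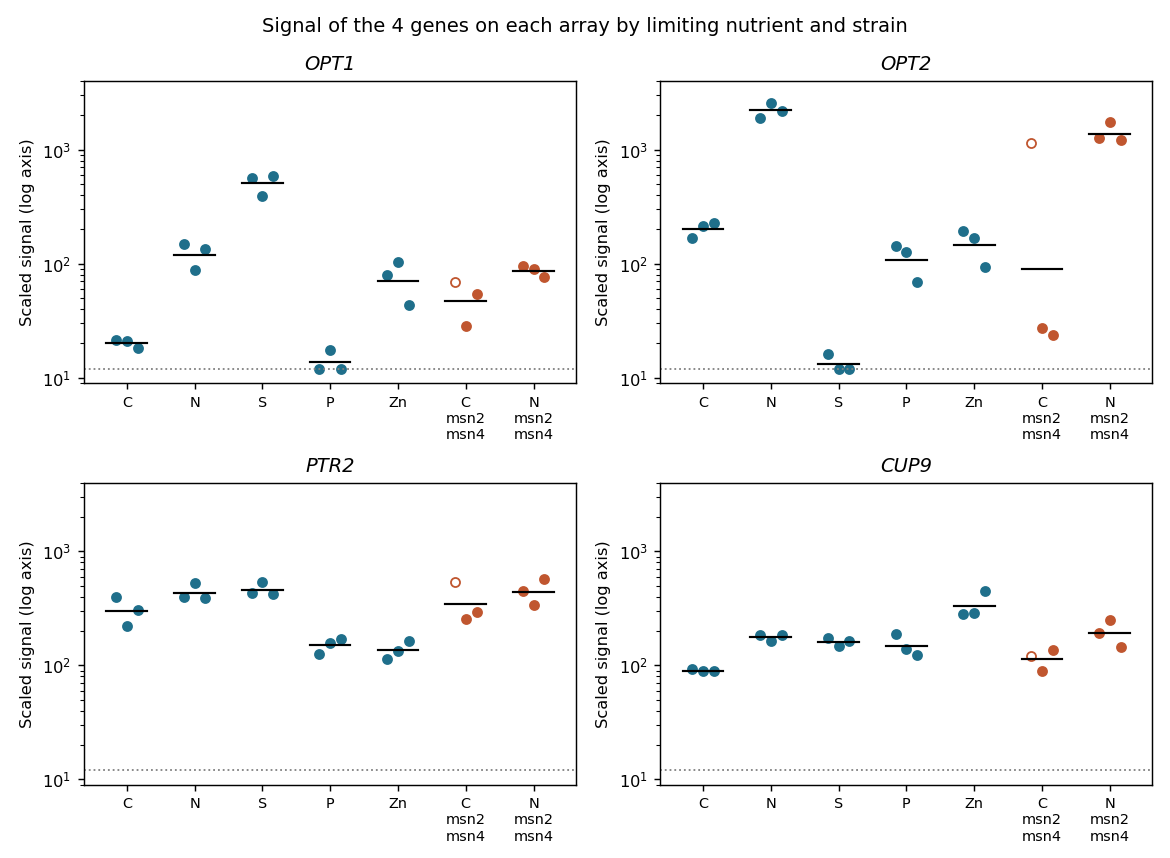
Scaled signal (log axis) of OPT1, OPT2, PTR2 and CUP9 on each of 21 arrays by limiting nutrient and strain, with wild type in blue, msn2 msn4 in orange, black bars for geometric means and a dotted line at the floor of 12. The open circle is C-limited msn2 msn4 replicate 1, which for OPT2 lay at 1140 while the other arrays of its group lay at 27.3 and 23.5; OPT1 was highest under S limitation and OPT2 under N limitation.

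OPT1, the glutathione transporter gene, was highest under sulfur limitation and lowest under phosphorus limitation. In the S-limited wild type it read 561, 394 and 586, a mean of 514 ± 104 (SD, n = 3). In P limitation it read 12, 17.6 and 12, with 2 arrays at the floor, and in C limitation 21.3, 21.02 and 18.3. Every S-limited array thus lay far above every P- and C-limited array. The N-limited arrays read 147, 87.7 and 134 and the Zn-limited arrays 80.2, 103 and 43.7, which put these groups between the others and overlapping each other.

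A gene was called when its adjusted p from limma, taken over all 5461 genes, was under 0.05 and its fold at least 2. Between P and S limitation, the comparison within 1 deposit, 4.23% of all tested genes were called, and OPT1 was at least 37.1-fold lower in P limitation (log2 -5.21 ± 0.32, standard error of the fit, adjusted p = 1.1e-09). Against C limitation OPT1 rose 25.1-fold under S limitation (log2 4.65, adjusted p = 1.4e-08), 5.96-fold under N limitation (log2 2.58, adjusted p = 3e-05) and 3.53-fold under Zn limitation (log2 1.82, adjusted p = 0.00035). The share of all genes called was 10.8%, 10.4% and 14.8% in these comparisons. N and Zn limitation were at least 8.82-fold and at least 5.22-fold above P limitation (adjusted p = 2e-06 and 2.4e-05). S limitation also stood above N limitation, 4.21-fold, and above Zn limitation, 7.12-fold (adjusted p = 0.00022 and 3.6e-06). In the order P, C, Zn, N, S the neighbours P and C did not differ by the test (log2 -0.56, 95% interval -1.24 to 0.11, adjusted p = 0.21), although no array overlapped, nor did Zn and N (adjusted p = 0.12). OPT1 was called in 8 of the 10 wild-type comparisons, against a median of 0 over all genes tested, 0.439% of which reached at least 8. The count stayed at 8 when any 1 array was left out.

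OPT2 was highest under nitrogen limitation and lowest under sulfur limitation. The N-limited wild-type arrays read 1912, 2590 and 2172, a mean of 2225 ± 342 (SD, n = 3), above every array of any other group. The S-limited arrays read 16.1, 12 and 12, with 2 at the floor. Between these extremes lay the C-limited arrays at 169, 215 and 228, the P-limited at 144, 126 and 68.9 and the Zn-limited at 195, 167 and 93.2. The mean in N limitation was 10.9-fold that in C limitation (log2 3.45), 20.5-fold that in P limitation, 15.3-fold that in Zn limitation and at least 167-fold that in S limitation.

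The S-limited group was thus low in OPT2 and high in OPT1. OPT2 fell at least 15.3-fold from C to S limitation (log2 -3.93 ± 0.91, limma adjusted p = 0.0053) and was at least 10.9-fold higher under Zn than under S limitation (adjusted p = 0.0079), a comparison in which 15.8% of all genes were called. The standard error of 0.91 takes in the wide spread of the C-limited mutant group, which is not compared here. With C-limited msn2 msn4 replicate 1 left out of the fit it was 0.28, and the adjusted p became 1.8e-08 for S against C and 7.1e-08 for Zn against S limitation. In the comparison within 1 deposit OPT2 was at least 8.12-fold higher under P than under S limitation, at the edge of the threshold with adjusted p = 0.053 on all arrays. It was 4.6e-07 without that array, 0.032 and 0.029 without replicate 2 or 3 of the same group, 0.015 with only the compared groups in the fit, and 0.027 and 0.046 under quantile and median scaling. It also passed with a floor of 1 (0.024) and with a replicate block (0.048). Under every other alternative, and with any other array left out, this difference stayed uncalled. C, P and Zn limitation did not differ from each other by the test in OPT2, with log2 differences of -0.91 for P minus C, -0.48 for Zn minus C and 0.43 for Zn minus P (adjusted p = 0.51, 0.73 and 0.76). Without that array P minus C had an adjusted p of 0.023 at 1.88-fold, under the fold of 2 that a call needs. Of the 6 wild-type comparisons that leave N limitation out, OPT2 was called in 2, or in 3 without that array.

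PTR2, the di- and tripeptide transporter gene, fell into a higher set of C-, N- and S-limited groups and a lower set of P- and Zn-limited groups. The S-limited arrays read 431, 543 and 423 and the N-limited arrays 394, 523 and 389.9. The C-limited arrays spread more widely, at 401, 220.2 and 308. The P-limited arrays read 125, 157 and 172 and the Zn-limited arrays 114, 133 and 163, so no array of the lower set reached any array of the higher set. PTR2 was 3.42-fold lower under Zn than under S limitation (log2 -1.77 ± 0.27, limma adjusted p = 1e-04) and 3.08-fold lower under P than under S limitation (log2 -1.62, adjusted p = 6e-04). N limitation stood 2.88-fold above P limitation (adjusted p = 0.00067), where 14.6% of all genes were called, and 3.19-fold above Zn limitation (adjusted p = 0.00031), where 7.89% were.

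Against C limitation the PTR2 calls were narrow. The gene fell 2.22-fold under Zn limitation (log2 -1.15, limma adjusted p = 0.004) and 2.00-fold under P limitation (log2 -1.00, adjusted p = 0.012), where 11.7% of all genes were called. Without C-limited wild type replicate 1, the highest of its group, these differences were -0.94 and -0.79 on the log2 scale and neither was called. The P-limited call was also lost without C-limited replicate 3 (-0.99), without P-limited replicate 1 (-0.87) and under scaling to a common median (-0.79). Quantile scaling (-0.91) and a fit of only the compared groups (limma adjusted p = 0.052) lost it as well. Within the higher set no pair differed by the test: N minus C was 0.52 (95% interval -0.05 to 1.10, adjusted p = 0.18), S minus C 0.62 (adjusted p = 0.11) and N minus S -0.10 (adjusted p = 0.84). P and Zn limitation did not differ by the test either (log2 -0.15 for Zn minus P, adjusted p = 0.72). Its 5 wild-type group means spanned 1.77 on the log2 scale, against 5.21 for OPT1, 7.38 for OPT2 and a median of 0.92 over all genes tested.

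CUP9, the repressor gene, was lowest under carbon limitation and highest under zinc limitation. The C-limited arrays agreed closely at 92.1, 88.8 and 89.3. The Zn-limited arrays read 283, 290.1 and 449, all above every other wild-type array. The N-limited arrays read 185, 165 and 185, the S-limited 175, 147 and 162 and the P-limited 190.3, 140 and 123, and these 3 groups overlapped. CUP9 was 3.69-fold higher under Zn than under C limitation (log2 1.89 ± 0.22, limma adjusted p = 5.5e-06). It was also 2.24-fold higher under Zn than under P limitation (adjusted p = 0.00078), where 15.2% of all genes were called, and 2.07-fold higher than under S limitation (adjusted p = 0.0017). Both of these calls rested on Zn-limited replicate 3, without which the differences were 0.95 and 0.83 on the log2 scale, and both were lost under scaling to a common median, at 0.70 and 0.68. The call against S limitation was also lost under quantile scaling (0.99) and without S-limited replicate 2 (0.98).

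The other CUP9 differences stayed under 2-fold. N, S and P limitation stood above C limitation by 0.98, 0.84 and 0.72 on the log2 scale, with limma adjusted p = 0.0045, 0.012 and 0.024, and N limitation reached 1.98-fold. Among N, S and P limitation no pair differed by the test (adjusted p = 0.38 for N minus P, 0.68 for N minus S and 0.86 for P minus S). CUP9 and PTR2 did not run as mirror images across the groups: under Zn limitation CUP9 was highest and PTR2 lowest, but under C limitation, where CUP9 was lowest, PTR2 stood in the middle of its order. In the same Zn-limited array, replicate 3, CUP9 and PTR2 were both the highest of their group while OPT1 and OPT2 were both the lowest.

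**Figure D2:**
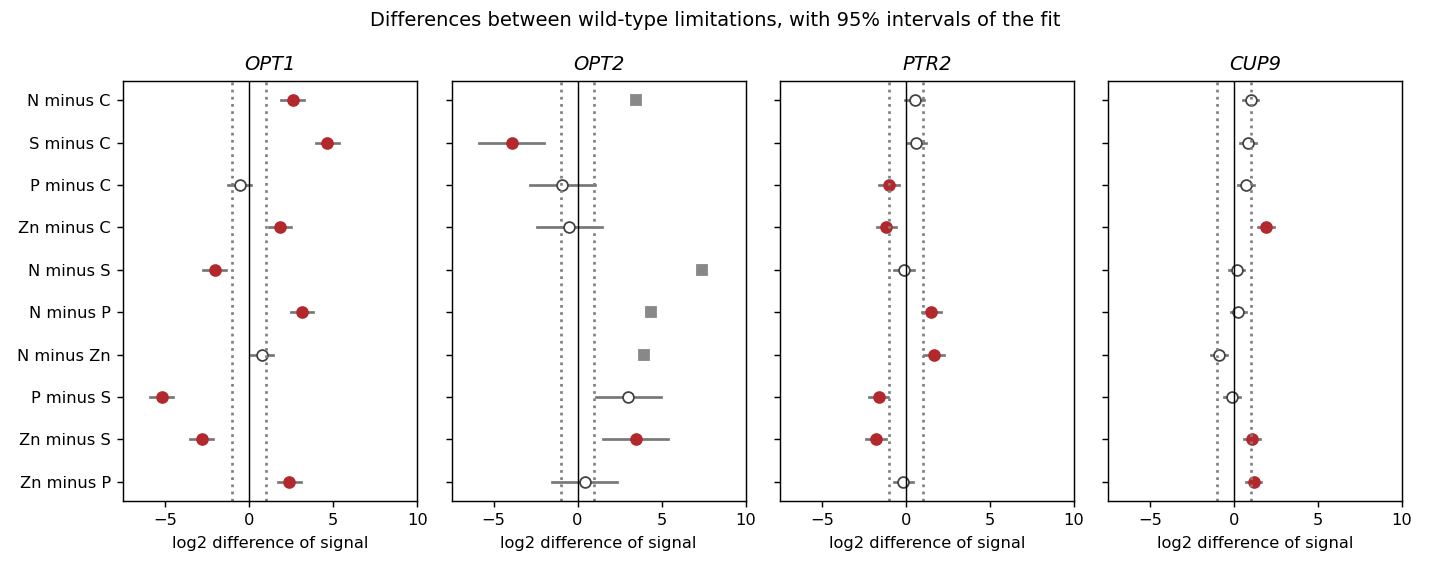
Log2 differences of signal between wild-type limitations (first minus second) for the 4 genes, with bars for the 95% intervals of the fit over 21 arrays, red points for called differences, open points for others and dotted lines at a fold of 2. Grey squares mark the N-limited differences of OPT2, given without a test; OPT1 ran from -5.21 (P minus S) to 4.65 (S minus C), while no CUP9 difference exceeded 1.89.

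Set side by side, each limitation gave the 4 genes a different pattern. Between N and C limitation OPT1 was called higher and PTR2 and CUP9 were not called. Between S and C limitation OPT1 and OPT2 were called, in opposite directions. Between P and C limitation PTR2 alone was called, and between Zn and C limitation OPT1, PTR2 and CUP9 were, with PTR2 lower and the others higher. Both of these PTR2 calls were narrow. Of all genes, 10.4% were called for N, 10.8% for S, 11.7% for P and 14.8% for Zn against C limitation. All 4 were called between Zn and S limitation, where 15.8% of all genes were called. OPT2 and CUP9 were higher and OPT1 and PTR2 lower under Zn limitation, and the CUP9 call was narrow. Between N and S limitation, where 11.1% of all genes were called, OPT1 was called lower under N limitation and PTR2 and CUP9 were not called. The comparisons with C limitation share their C-limited arrays and are not independent of each other. Under scaling to a common median the median difference of all genes moved from 0.10 to -0.13 for N minus C, from 0.05 to -0.15 for Zn minus C and from 0.22 to -0.17 for Zn minus P on the log2 scale.

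The msn2 msn4 strain kept the N-limited OPT2 level high. Its N-limited arrays read 1255, 1735 and 1213, below the wild-type arrays at 1912 to 2590 without overlap, a log2 difference of -0.68. In this comparison 7.84% of all genes were called, and none of OPT1, PTR2 and CUP9. The C-limited mutant arrays read 1140, 27.3 and 23.5 for OPT2. The first lay near the N-limited mutant arrays and the others below every C-limited wild-type array.

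On all arrays OPT2 did not differ by the test between the C-limited mutant and wild type (log2 -1.17, limma adjusted p = 0.48). The arithmetic mean of the mutant was the higher, 397 against 204, opposite in sign to the log2 difference. Without the 1 array at 1140 the mutant mean was 25.4 (n = 2), and OPT2 was 7.98-fold lower than in the wild type (log2 -3.00 ± 0.32, adjusted p = 1.3e-05), in a comparison that called 4.03% of all genes on all arrays and 2.58% without it. Between N and C limitation within the mutant OPT2 was 15.3-fold higher on all arrays (log2 3.94, adjusted p = 0.13). Without the array it was 54.5-fold higher (log2 5.77 ± 0.32, adjusted p = 2.3e-09). That array is itself extreme in OPT2, so the p-values without it are not independent of the choice to leave it out. That comparison called 3 of all genes, 0.0549%, on all arrays, with 570 at an unadjusted p under 0.05, and 5.16% without the array.

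OPT1 showed the other strain difference. The C-limited mutant arrays read 68.5, 28.6 and 54.1 against 18.3 to 21.3 in the wild type, with no overlap, and OPT1 was 2.35-fold higher (log2 1.23 ± 0.32, limma adjusted p = 0.025). The call did not stand without C-limited msn2 msn4 replicate 1 (log2 0.96, adjusted p = 0.13), without replicate 3 of that group (1.13, adjusted p = 0.078) or without any 1 of the C-limited wild-type arrays (adjusted p = 0.066 to 0.079). Under N limitation OPT1 read 94.7, 89.3 and 76.9 in the mutant, within the wild-type range at its upper end and below it at its lower end (log2 -0.47, adjusted p = 0.31). Between N and C limitation within the mutant OPT1 was not called on all arrays (log2 0.87, adjusted p = 0.28) and was called without that array (log2 1.14, adjusted p = 0.045).

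PTR2 and CUP9 were called in none of the mutant comparisons, with or without that array. PTR2 read 534, 256 and 294 in the C-limited mutant and 447, 342 and 571 in the N-limited mutant, both overlapping the wild type. Its strain differences were 0.19 on the log2 scale under C limitation (95% interval -0.39 to 0.76) and 0.04 under N limitation (-0.54 to 0.61), so a 2-fold strain difference lay outside both intervals. CUP9 read 122, 89.9 and 138 in the C-limited mutant and 193, 249.5 and 145 in the N-limited mutant, with strain differences of 0.35 and 0.10 (adjusted p = 0.37 and 0.79). The difference between the strain effects under N and C limitation, which called 1.5% of all genes, was not called on all arrays for OPT1 (-1.70, adjusted p = 0.068), PTR2 (-0.15, adjusted p = 0.89) or CUP9 (-0.25, adjusted p = 0.73).

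**Figure D3:**
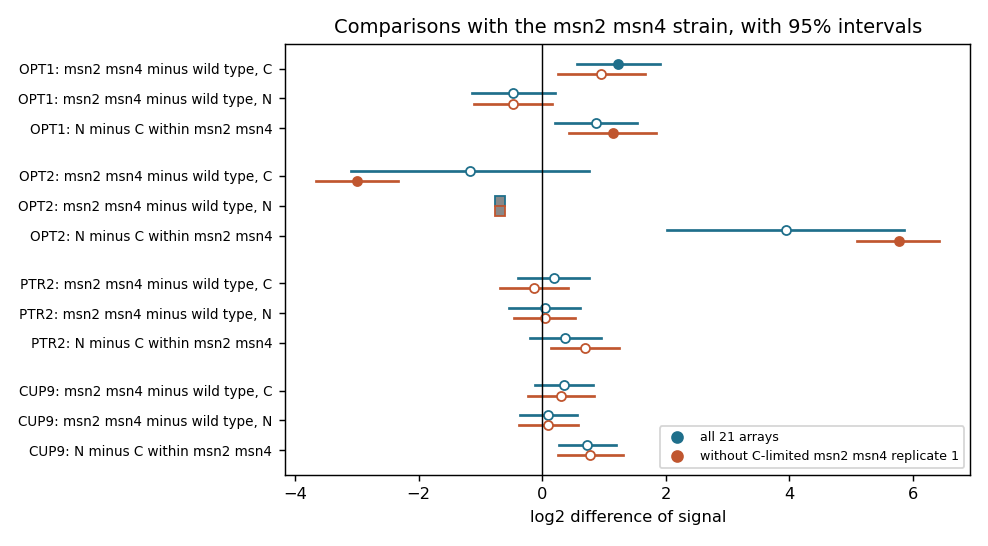
Log2 differences of signal in the comparisons with the msn2 msn4 strain for each gene, with 95% intervals, from all 21 arrays (blue) and without C-limited msn2 msn4 replicate 1 (orange); filled points were called, and squares mark the N-limited strain difference of OPT2, given without a test. For OPT2 the difference of the C-limited mutant from the wild type moved from -1.17 to -3.00 when that array was left out, while those of PTR2 and CUP9 stayed uncalled.

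Genes that act with the transporters were described from 7 lists written from general knowledge of yeast. Of the 16 SPS and peptide import regulators, 3 were called higher under N than under C limitation: DAL81 (2.44-fold, limma adjusted p = 0.0055), PTR3, a subunit of the sensor (2.15-fold), and GRR1, an F-box protein of the pathway (2.09-fold). Over all genes 6.54% were called higher and 3.85% lower in that comparison. The list's count was 1 of 16 under median and under quantile scaling. The list's median log2 difference was 0.48, against 0.10 over all genes. Calls in this list were not confined to N limitation. Against C limitation DAL81 was also called higher under P (2.0-fold) and PTR3 under Zn limitation (2.0-fold). TUP1, of the same list, was called higher under S (2.35-fold) and P limitation (2.61-fold), and TOS8 was called both ways, as given below. STP1 and STP2, whose products activate PTR2, were called in none of the comparisons with C limitation, at log2 -0.40 to 0.21 and 0.14 to 0.69.

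UBR1, the ligase gene that controls Cup9, was not called against C limitation either, at log2 -1.16 to 0.35. In N limitation it read 279 and 243 on replicates 1 and 2 and lay at the floor on replicate 3, so the N-limited value rests on that array. TOS8, the paralogue of CUP9, moved with CUP9 under Zn limitation. It was 5.40-fold higher than in C limitation (351 ± 117 against 64.6 ± 19.0, SD, n = 3, limma adjusted p = 4.5e-06) and 13.9-fold higher than in P limitation (adjusted p = 2.1e-08), and replicate 3 was again the highest of its group. In P limitation TOS8 and CUP9 parted: TOS8 fell 2.57-fold from C limitation (adjusted p = 0.0021), where CUP9 differed by 0.72 on the log2 scale in the other direction.

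Most amino acid permease genes of the SPS pathway, which share their inducer with PTR2, stood lower under N limitation. Of 7 measured, 5 fell from C limitation and none rose under each of the scalings tried, against 3.85% of all genes called lower: GNP1 (at least 17.2-fold), BAP2 (12.1-fold), TAT2 (at least 8.77-fold), BAP3 (at least 7.18-fold) and AGP1 (7.16-fold). The median log2 difference of the 7 was -2.84, while PTR2 differed by 0.52. DIP5 went the other way, with a mean of 1349 in N against 785.5 in C limitation, and TAT1 read 32.04 against 32.05. Neither was called. Under Zn limitation, where PTR2 fell, 3 of 7 fell, DIP5 (10.8-fold), BAP2 (4.58-fold) and AGP1 (2.69-fold), against 5.71% of all genes, but without scaling 2 were higher and 2 lower. BAP2 fell 10.1-fold under P limitation, and DIP5 and AGP1 fell with it (4.88-fold and 6.16-fold), as did GNP1 without C-limited msn2 msn4 replicate 1 (2.90-fold), against 7.73% of all genes. Permease genes also fell from C to S limitation, where PTR2 was not called. DIP5 (3.91-fold) and BAP2 (3.07-fold) were called lower there, against 6.17% of all genes, and no gene of the list was called higher. Without that array AGP1 was called lower too (2.14-fold).

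Nitrogen catabolite repression genes, which serve the uptake and use of poor nitrogen sources, shared the N-limited side of the OPT2 pattern. From C to N limitation 12 of 22 measured rose, led by DAL5 (42.2-fold), DAL80 (27.5-fold) and GAP1 (27.2-fold), and 1 fell, MEP3; without C-limited msn2 msn4 replicate 1, 13 rose. From C to S limitation, where OPT2 fell, none of the 22 rose and 2 fell, MEP3 (5.98-fold) and GLN1 (2.34-fold), beside 4.67% higher and 6.17% lower over all genes, and under median scaling 1 rose. Without that array 2 of them rose, GAP1 (2.27-fold) and CAR2 (2.78-fold), and 3 fell, with MEP1 (2.14-fold) added. The list's median was 1.72 for N minus C and -0.08 for S minus C, against 0.10 and -0.05 over all genes. Of the 5 GATA factor genes and their regulators, 3 rose from C to N limitation, DAL80, GAT1 (4.55-fold) and GZF3 (2.93-fold), and none fell. Not all of these rises were particular to N limitation. Against C limitation GAT1 was also called higher under S (3.94-fold) and P limitation (3.05-fold), and GZF3 under Zn limitation (2.72-fold). DAL80 was not called under S, P or Zn limitation. Of 14 peptidase genes 6 rose and none fell, led by CPS1, the vacuolar carboxypeptidase S gene (16.3-fold), and PRB1, the vacuolar proteinase B gene (2.53-fold); under median scaling 2 rose and 1 fell, and over all genes 6.54% were called higher.

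Within the mutant the repression genes turned on the same array as OPT2. On all arrays none of 22 was called between N and C limitation, where 0.0549% of all genes were called. Without C-limited msn2 msn4 replicate 1, 13 rose and none fell, with a median log2 difference of 1.85 against -0.07 over all genes. In that fit 1.98% of all genes were called higher. DAL5 of this list was a gene on which that array stood apart. The counts without the array are thus not independent of the choice to leave it out.

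Glutathione and sulfur genes are the surroundings of OPT1. Under S limitation 3 of 12 measured glutathione synthesis and breakdown genes rose against C limitation and none fell, while on the values as deposited 2 rose and 1 fell. Over all genes 4.67% were called higher and 6.17% lower. They were DUG3, needed to break down glutathione in the cytosol (739 ± 160 against 106 ± 17.9, SD, n = 3, 6.90-fold, limma adjusted p = 1.8e-08), GTT2, a glutathione transferase gene (3.43-fold), and GSH1, of the first step of glutathione synthesis (2.11-fold, adjusted p = 0.049). From S to P limitation the same 3 genes fell, 12.6-fold, 7.16-fold and 3.79-fold, in the same comparison in which OPT1 was at least 37.1-fold lower. Under Zn limitation, where OPT1 rose, none of the 12 was called (limma adjusted p of 0.0025 for GTT2, at log2 -0.75), beside 14.8% of all genes. On the values as deposited, which are unscaled, 4 of the 12 were higher, beside 2281 of all 5461 genes.

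Of 8 sulfur source uptake genes 7 rose under S limitation and none fell, with a median log2 difference of 2.59, led by YCT1, a cysteine transporter gene (45.6-fold), SOA1 (at least 22.3-fold) and MUP1, a methionine permease gene (8.92-fold). All 8 were lower under P than under S limitation, where 2.33% of all genes were called lower. Against C limitation YCT1 differed by 2.36 under N, 5.51 under S, -1.18 under P and 2.20 under Zn limitation on the log2 scale, beside 2.58, 4.65, -0.56 and 1.82 for OPT1. These comparisons share the C-limited arrays, and YCT1 was picked after its values were seen. Other genes of the list went both ways under Zn limitation. SUL1, MMP1 and SUL2 were called lower (log2 -3.34, -1.35 and -1), and MUP1, SAM3, SOA1 and MUP3 higher. Between the strains YCT1 and OPT1 parted. YCT1 was called lower in the mutant under N limitation (log2 -1.96), where OPT1 was not called. Under C limitation YCT1 was not called (log2 -0.36), where OPT1 was called higher on all arrays. The lists overlap, as DAL80 and CPS1 and the DUG genes stand in more than 1.

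**Figure D4:**
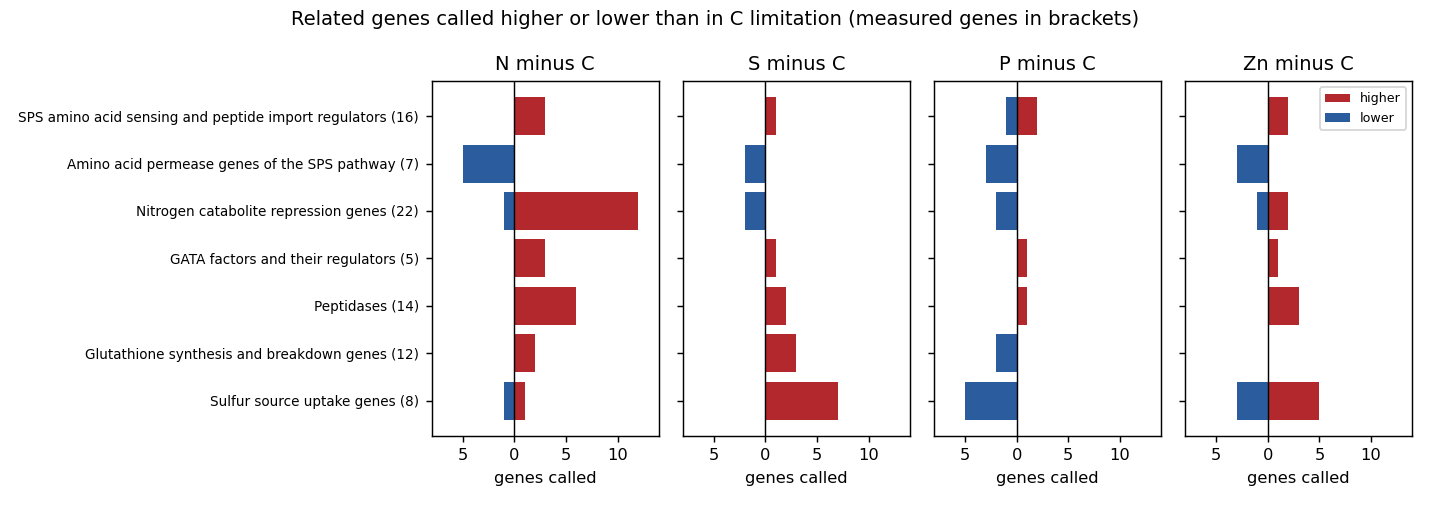
Number of genes of each of 7 related lists called higher (red) or lower (blue) than in C limitation in the wild type under N, S, P and Zn limitation, with the number measured in brackets. Under N limitation 12 of 22 nitrogen catabolite repression genes were higher and 5 of 7 SPS permease genes lower, and under S limitation 7 of 8 sulfur source uptake genes were higher.

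The genes whose 7 group means, each centred on its own mean, lay nearest to those of a member were found by the root mean square difference on the log2 scale over 7 groups. Nearest to OPT1 were RAD59, a recombination gene (0.66), YOL163W (0.69) and GRX8, a glutaredoxin gene (0.73). Nearest to OPT2 were DAL80 (1.18), MEP2, an ammonium permease gene (1.29), and MLS1, a malate synthase gene (1.32). None of these came close to the S-limited drop of OPT2: the centred mean under S limitation was -3.89 for OPT2 against -1.51, -1.43 and -1.04. The same 3 genes were nearest to OPT1 and to OPT2 without C-limited msn2 msn4 replicate 1.

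PTR2 and CUP9 had closer neighbours, as their own ranges were smaller. Nearest to PTR2 were RPS14B, a ribosomal protein gene (0.28), GUD1, the guanine deaminase gene (0.29), and YDL057W (0.29). Nearest to CUP9 were SSE2, a chaperone gene (0.21), TAH11 (0.22) and ETT1 (0.22). Without that array FUN26 replaced RPS14B beside PTR2, and PAL2 and SSA4 replaced TAH11 and ETT1 beside CUP9.

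**Figure D5:**
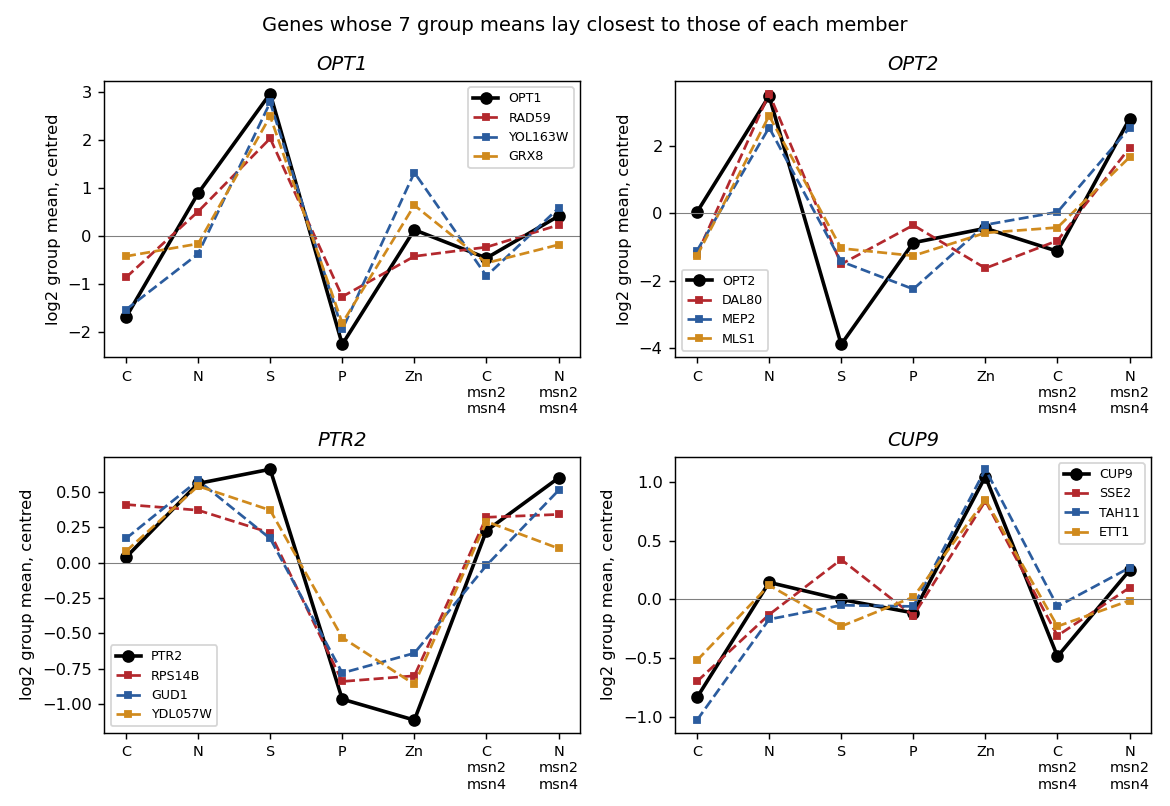
Centred log2 group means of OPT1, OPT2, PTR2 and CUP9 (black) and of the 3 genes nearest to each (dashed) over the 5 wild-type limitations and the 2 msn2 msn4 groups, with a different vertical scale in each panel. OPT2 lay at -3.89 under S limitation, below its 3 nearest genes at -1.51, -1.43 and -1.04, of which DAL80 (-1.51) was limited by the floor.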

How the data were processed

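The deposited values are linear signal intensity of 9335 probe sets on 21 arrays, which the authors computed with GCOS (version 1.2 where given), per the submitters' processing notes and the labels. The genome build is not given in the sources used here. Arrays were brought to 1 trimmed mean (2% off each end, 150.2), signals below 12 were set to 12, and the log2 was used. Of these probe sets 6504 matched 1 gene; the brightest was kept where a gene had several, which did not touch the members. Of 5656 genes, 195 never rose above the floor and were dropped, all 4 members passed, and 5461 were tested. Names and chromosomes follow RefSeq assembly R64.

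The means of the 7 groups were estimated by limma (3.58.1, R 4.3.3) from all 21 arrays together, and p-values were adjusted by Benjamini-Hochberg over all genes within each comparison. A ± after a signal is the SD and after a log2 value the standard error. A fold is a ratio of geometric means, and "at least" marks a lower group with an array at the floor. Precision is limited by 3 arrays a group.

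The members and the 7 lists were chosen with earlier results of these data known. The naming rule took from each list at most 3 called genes, by size of change, and at most 2 uncalled ones, by adjusted p, and UBR1, STP1, STP2, DAL81 and TOS8 anywhere. Genes that complete a count of 5 or fewer, and YCT1 beside OPT1, were named after their values were seen. ASP3-1, GEX1 and GEX2 were not measured. Alternatives were other scalings, floors, filters, probe set rules, fits and thresholds, and leaving out each array.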

Additional observations from a re-analysis of the deposited data

Results flagged for a closer look

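For OPT2, the effect of losing MSN2 and MSN4 was set between N and C limitation as a difference of differences: 2.32 on the log2 scale (± 0.42, standard error of the limma fit) once replicate 1 of the C-limited mutant was left out. It is named here because it passed the threshold in that fit, but it is given as a description: it uses the N-limited wild-type values for which OPT2 was chosen, and the array left out is itself extreme in OPT2 (1140 against 27.3 and 23.5). The strain difference, mutant minus wild type, was -3.00 under C and -0.68 under N limitation in that fit, with 25.4 (n = 2) against 204 (n = 3) and 1401 against 2225 (n = 3) as mean signals. With all arrays the same contrast was 0.49 and did not pass. Whether the array carries the RNA its label gives was not tested, and the strain comparisons also set 1 deposit against another.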

How the results depend on the processing

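Of 672 results of a member in a comparison under alternatives that keep all arrays, 643 kept their direction and their side of the threshold, and of 1176 with 1 array left out 1152 did. Some alternatives could not change a member's signal, as each member had 1 probe set and passed the floor filter. These were the mean of a gene's probe sets, the test of all probe sets and no floor filter, each with 56 of 56 results kept. The counts also take in the OPT2 comparisons that are given only as a description. Across arrays left out in turn the wild-type comparisons called were 8 to 8 for OPT1, 6 to 7 for OPT2 (4 of them with its N-limited wild-type values, a description only), 4 to 6 for PTR2 and 1 to 4 for CUP9, the mutant comparisons 0 to 1 for OPT1, 0 to 2 for OPT2 and 0 to 0 for PTR2 and CUP9, and members called for the difference of strain effects 0 to 1. CUP9 was called in 1 wild-type comparison under median scaling, 7 as deposited and 7 with no fold threshold. OPT1 was called in 0 mutant comparisons with a floor of 24 and with only the compared groups in the fit. As deposited, 1 member, OPT1, was called for the difference of strain effects (log2 -1.91, limma adjusted p = 0.042). OPT1 was then called lower in the mutant under N limitation (-1.35, adjusted p = 0.0018) and not called under C limitation (0.55, adjusted p = 0.18). PTR2, as deposited, turned from -0.15 to 1.34 between Zn and P limitation (adjusted p = 0.00011). Its Zn-limited falls were then uncalled against C (-0.34, adjusted p = 0.26) and S limitation (-0.28, adjusted p = 0.32). The Zn-limited arrays were deposited with a higher trimmed mean, so those values are unscaled. Without C-limited msn2 msn4 replicate 2 the OPT1 difference of strain effects was -2.07 (adjusted p = 0.018). Replicate numbers did not pair the arrays (correlations of -0.26 to 0.30). With the replicate block 1 member call changed, OPT2 between P and S limitation (log2 3.02, adjusted p = 0.048). Levels near 12 limit OPT1 in P and OPT2 in S limitation.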
